A study of Mus musculus with 2 samples.

Results

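Polycomb group genes encode proteins that keep developmental genes silent, and 10 of them were examined here: Ezh1, Ezh2, Eed, Suz12, Jarid2, Rnf2, Ring1, Bmi1, Pcgf6 and Scml2. They were chosen by name. Of the 10 symbols, 9 matched a named row of the gene lists, among 26893 named rows in all, and Pcgf6 was not analysed here. The cells were mouse undifferentiated spermatogonia of strain C57BL/6, selected from adult testes for the surface protein THY1, kept in culture with the growth factors GDNF and bFGF on mitomycin-treated SNL76/7 embryonic fibroblasts. One group received a non-targeting control siRNA and the other an siRNA that targets Chd4, which encodes the motor subunit of the chromatin remodelling complex NuRD. Both were transfected off the feeder layer, on plastic, with 75 pmol siRNA and 2 µL Lipofectamine, and were collected after 24 h. Each group was 1 droplet library (10x Genomics, version 2 chemistry) into which equal numbers of cells of 3 biological replicates had been combined, so the replicates cannot be told apart. No difference between the libraries has a replicate check, and no p-value is given. "Higher" and "lower" compare the 2 libraries, or 2 classes of cells within a library.

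Polycomb proteins work in 2 main complexes. PRC2 places a repressive methyl mark on histone H3: its catalytic subunit is EZH1 or EZH2, EED reads the mark and stimulates the enzyme, SUZ12 holds the complex together, and JARID2 is an accessory subunit that helps to recruit it. PRC1 attaches ubiquitin to histone H2A: its catalytic subunit is RING1B (encoded by Rnf2) or RING1A (encoded by Ring1), each paired with one of the PCGF proteins, of which BMI1 is PCGF4. Canonical PRC1 also holds a CBX protein, which binds the mark of PRC2, and a PHC protein, whereas variant PRC1 holds RYBP or YAF2 instead. SCML2 is a germline protein that associates with PRC1 and is known for its role in the epigenome of spermatogenic cells.

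Germ cells and feeder cells were separated by their UMIs, the molecular tags that stand for single captured transcripts. A cell with more Dazl and Ddx4 UMIs (germ cell genes) than Col1a1 and Fn1 UMIs (collagen and fibronectin) was a germ cell, and the opposite case a feeder cell. The control library held 728 germ cells and 79 feeder cells among 816 kept cells, and the Chd4 siRNA library held 760 and 89 among 858. In each library 9 cells fell in neither class. Germ cells had a median of 15282 UMIs in the control and 15581.5 in the Chd4 siRNA library, and feeder cells 38655 and 40805. The classes bore out their names on genes not used to split them. The 12 measured germ cell markers, among them Mael and Zbtb16, summed to 1984 and 2121 CPM (UMIs of a gene per 1000000 UMIs) in germ cells and to 97.3 and 76.8 in feeder cells. The 11 fibroblast markers summed to 715 and 791 CPM in germ cells and to 14463 and 15565 in feeder cells. Most of the feeder cell sums came from S100a6 (5765 and 6201 CPM) and Lgals1 (6285 and 6677 CPM). Lgals1 also held most of the germ cell sums, with 542 and 619 CPM. Each of the 11 was higher in feeder cells in both libraries. The siRNA target was lower in both classes: Chd4 had 6218 UMIs in control germ cells and 3098 in germ cells of the Chd4 siRNA library, a log2 ratio of −1.08 (95% interval −1.15 to −1.02), and the log2 ratio in feeder cells was −1.55 (−1.80 to −1.30). All intervals are at 95% and cover counting error only.

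The members are spread over 8 chromosomes, and 4 of their promoters are printed because their genes carry the patterns described further on: Ezh2 and Suz12, which differed by cell cycle phase, and Jarid2 and Scml2, which separated germ cells from feeder cells. The sequences are the RefSeq bases before the transcription start on GRCm38, the assembly also called mm10, 5′ to 3′ on the gene's strand. In Ezh2 the capitals mark CCAAT, on either strand, and in the other promoters they mark TTTCCCGC (an E2F motif) and TCCCGC (a core shared by E2F factors, contained in the former), on either strand.
Ezh2 chr6:47595059-47595183, minus strand: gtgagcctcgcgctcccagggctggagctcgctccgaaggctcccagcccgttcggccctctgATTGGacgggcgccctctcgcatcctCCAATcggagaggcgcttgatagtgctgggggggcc
Suz12 chr11:79992856-79993105, plus strand: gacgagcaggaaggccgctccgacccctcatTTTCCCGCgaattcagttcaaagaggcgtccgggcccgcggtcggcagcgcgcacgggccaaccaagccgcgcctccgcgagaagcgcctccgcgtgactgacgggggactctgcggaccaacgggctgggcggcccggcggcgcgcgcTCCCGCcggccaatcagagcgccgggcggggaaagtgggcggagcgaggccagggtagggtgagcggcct
Jarid2 chr13:44730524-44730773, plus strand: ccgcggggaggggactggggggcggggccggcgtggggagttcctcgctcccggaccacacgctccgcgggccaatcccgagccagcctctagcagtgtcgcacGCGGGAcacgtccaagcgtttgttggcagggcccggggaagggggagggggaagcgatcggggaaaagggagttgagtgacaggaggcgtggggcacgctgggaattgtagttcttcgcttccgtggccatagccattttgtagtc
Scml2 chrX:161162500-161162749, plus strand: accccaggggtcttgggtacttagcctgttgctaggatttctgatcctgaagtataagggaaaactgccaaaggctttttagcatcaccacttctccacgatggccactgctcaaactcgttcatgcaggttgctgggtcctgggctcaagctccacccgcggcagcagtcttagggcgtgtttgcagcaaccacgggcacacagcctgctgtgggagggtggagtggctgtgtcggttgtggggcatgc

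The Ezh2 stretch of 125 bases lies between alternative first exons of the gene in the GENCODE M21 annotation. It holds 2 matches to CCAAT, and 21.7% of all 32851 promoters hold 1 or more in the same window. The share that holds 2 was not computed. The printed windows of Suz12 and Jarid2 hold 1 match to CCAAT each, left in lower case, and 33.8% of promoters hold it at least once within 250 bases. Suz12 holds 1 match to an E2F motif (TTTCCCGC or TTTGGCGC on either strand), which 1.30% of promoters hold within 250 bases of the start, and 2 matches to TCCCGC, which 16.9% of promoters hold at least once. No E2F motif of those letters stood in the 250 bases before the start of Ezh2. Jarid2 has 2 promoter entries, and the printed one holds 1 match to TCCCGC. Scml2 holds none of these motifs, and its window lies inside the annotated gene, in no exon of it. The Scml2 window holds 7 CpG dinucleotides and that of Suz12 holds 37, which are the lowest and the highest number among the promoters of the 9 measured members, beside a median of 6 over all promoters. A match is a description of letters and not a measured binding site.

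Among the members, Jarid2 and Scml2 differed most between germ and feeder cells. Scml2 was at 101 CPM (95.3 to 106.9) in control germ cells and 103 CPM (96.9 to 108.4) in germ cells of the Chd4 siRNA library. In feeder cells it was at 9.14 CPM (6.12 to 13.1) and 3.60 CPM (1.92 to 6.16), from 29 and 13 UMIs. The log2 ratio of germ over feeder cells was 3.47 (2.94 to 4.05) in the control and 4.83 (4.05 to 5.74) in the Chd4 siRNA library. Jarid2, the recruiting subunit of PRC2, was at 100.2 CPM (94.5 to 106.1) and 91.1 CPM (85.8 to 96.6) in germ cells. In feeder cells it was at 6.62 CPM (4.10 to 10.1) and 7.48 CPM (4.93 to 10.9). Its log2 ratios of germ over feeder cells were 3.92 (3.30 to 4.62) and 3.61 (3.06 to 4.21).

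RNA set free from germ cells can give a droplet with a feeder cell some UMIs of germ cell genes. The level in feeder cells, as a percent of that in germ cells, was 2.17 to 17.0 over the 12 germ cell markers in the control library, with a median of 4.49, and 0.702 to 14.6 in the Chd4 siRNA library, with a median of 3.45. For Scml2 it was 9.05 percent (6.03 to 13.1) and 3.52 percent (1.87 to 6.03), and for Jarid2 6.60 percent (4.07 to 10.1) and 8.22 percent (5.39 to 12.0). Both genes lay between the lowest and the highest marker, whose top in both libraries was Etv5. Scml2 lay above 10 of the 12 markers in the control and 7 of 12 in the Chd4 siRNA library, and Jarid2 above 9 of 12 and 11 of 12. The part of free RNA in these UMIs was not tested. Ezh1 lay above that range, at 40.6 percent (27.1 to 59.0) and 28.1 percent (18.7 to 40.8).

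**Figure D1:**
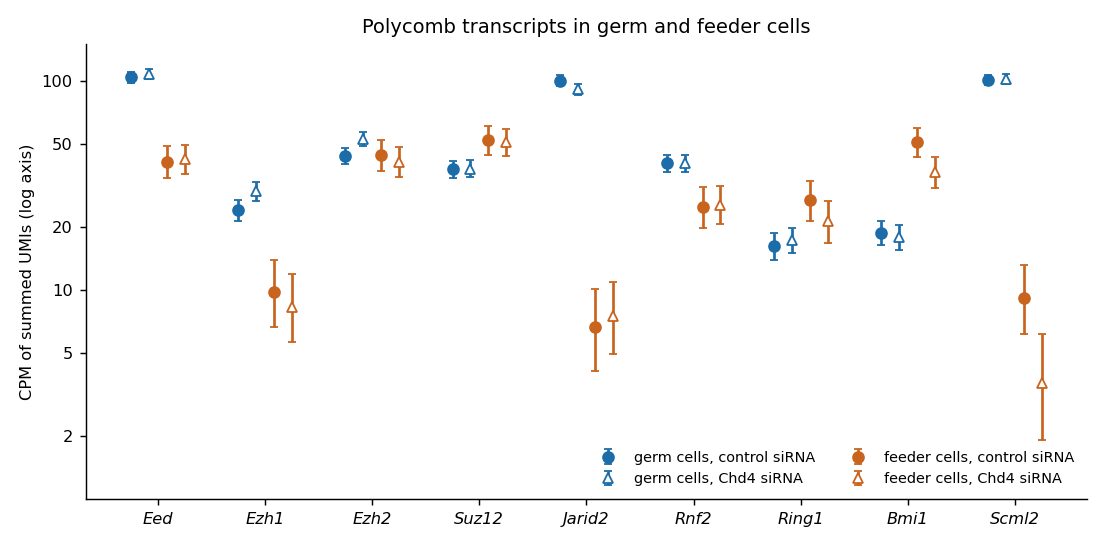
CPM of summed UMIs (log axis) of the 9 measured Polycomb members in germ cells (blue) and feeder cells (orange), with filled circles for control siRNA and open triangles for Chd4 siRNA; bars are exact Poisson 95% intervals of counting error. Jarid2 and Scml2 stand near 100 CPM in germ cells and below 10 CPM in feeder cells, whereas Bmi1 is higher in feeder cells.

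Within the PRC2 core, Eed was higher in germ cells and Suz12 somewhat lower. Eed was at 103.8 CPM (98.0 to 109.9) and 107.4 CPM (101.7 to 113.4) in germ cells of the control and Chd4 siRNA libraries, and at 41.0 CPM (34.2 to 48.6) and 42.1 CPM (35.7 to 49.4) in feeder cells. The germ cell values lie far above the feeder cell values in both libraries, and the log2 ratios were 1.34 (1.08 to 1.61) and 1.35 (1.11 to 1.60). Suz12 was at 37.8 CPM (34.4 to 41.5) and 38.0 CPM (34.6 to 41.6) in germ cells, and at 52.0 CPM (44.3 to 60.5) and 51.0 CPM (43.9 to 58.9) in feeder cells. Its log2 ratios were −0.46 (−0.72 to −0.19) and −0.43 (−0.68 to −0.17), so the core subunits Eed and Suz12 differed in opposite directions between the classes.

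The catalytic subunits of PRC2 did not follow each other. Ezh1 was at 24.0 CPM (21.3 to 27.0) and 29.6 CPM (26.7 to 32.8) in germ cells, and at 9.77 CPM (6.63 to 13.9) and 8.32 CPM (5.61 to 11.9) in feeder cells. The log2 ratios of germ over feeder cells were 1.30 (0.76 to 1.88) and 1.83 (1.29 to 2.42). Ezh2 was at 43.9 CPM (40.1 to 47.8) and 52.7 CPM (48.7 to 57.0) in germ cells, and at 44.1 CPM (37.1 to 52.0) and 41.0 CPM (34.7 to 48.2) in feeder cells. Its log2 ratio was −0.01 (−0.28 to 0.27) in the control and 0.36 (0.10 to 0.63) in the Chd4 siRNA library, and only in the control library did the interval hold 0.

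Among the PRC1 members, Bmi1 and Ring1 were the ones with more CPM in feeder cells. Bmi1 was at 18.8 CPM (16.4 to 21.5) and 17.9 CPM (15.6 to 20.4) in germ cells and at 50.7 CPM (43.2 to 59.2) and 36.6 CPM (30.6 to 43.4) in feeder cells, with log2 ratios of −1.43 (−1.73 to −1.13) and −1.03 (−1.35 to −0.71). Ring1 was at 16.2 CPM (14.0 to 18.7) and 17.2 CPM (15.0 to 19.7) in germ cells and at 26.8 CPM (21.4 to 33.1) and 21.3 CPM (16.8 to 26.7) in feeder cells. Its log2 ratios were −0.72 (−1.10 to −0.34) and −0.31 (−0.69 to 0.09), and the second interval holds 0. Rnf2 was at 40.3 CPM (36.8 to 44.1) and 40.2 CPM (36.8 to 43.9) in germ cells and at 24.9 CPM (19.7 to 31.0) and 25.5 CPM (20.6 to 31.3) in feeder cells, with log2 ratios of 0.70 (0.35 to 1.06) and 0.66 (0.33 to 1.0).

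Past a 2-fold difference in both libraries were 4 of the 9 members in favour of germ cells (Ezh1, Eed, Jarid2, Scml2) and 1 in favour of feeder cells (Bmi1). The same was true of 31.6% of the 10753 genes with at least 100 UMIs in favour of germ cells and of 18.2% in favour of feeder cells. With 9 members, the share of 4 is near that background. At 3-fold, 2 of the 9 members, Jarid2 and Scml2, were past the limit in favour of germ cells and 0 in favour of feeder cells, beside 20.6% and 12.4% of the 10753 genes.

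The use of paralogs, subunits that can take the same place in a complex, differed between the classes in each of the 5 families measured. Of all 10753 genes tested, 31.6% were past 2-fold in favour of germ cells and 18.2% in favour of feeder cells. Shares in other gene families were not computed, so whether 5 of 5 is more than usual is not known. The chemistry tags each transcript once, near its 3′ end, so the UMIs of paralogs were compared without a correction for length. Of the UMIs of Ezh1 and Ezh2, Ezh2 had 64.6% (61.1 to 67.9) in control germ cells and 64.0% (61.0 to 67.0) in germ cells of the Chd4 siRNA library. In feeder cells its share was 81.9% (75.3 to 87.3) and 83.1% (76.8 to 88.3), and the intervals of the 2 classes do not overlap. Of the UMIs of the ubiquitin ligases, Rnf2 had 71.3% (67.7 to 74.8) and 70.0% (66.5 to 73.4) in germ cells but 48.2% (40.3 to 56.1) and 54.4% (46.6 to 62.1) in feeder cells.

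The PCGF proteins define the subtypes of PRC1, with PCGF2 and BMI1 in the canonical complexes. Bmi1 had 15.8% (13.9 to 17.8) and 15.7% (13.8 to 17.7) of the UMIs of the 4 measured Pcgf genes in germ cells, against 26.5% (23.0 to 30.2) and 21.1% (17.9 to 24.5) in feeder cells. Pcgf2 went the other way, with 33.3% (30.9 to 35.9) and 28.8% (26.4 to 31.2) in germ cells and 12.2% (9.68 to 15.0) and 13.7% (11.1 to 16.7) in feeder cells. Pcgf3 led in feeder cells with 54.6% (50.6 to 58.6) and 59.2% (55.2 to 63.0), and had 34.7% (32.2 to 37.3) and 38.4% (35.8 to 41.0) in germ cells. Pcgf1, of the complex that holds BCOR and KDM2B, had 16.2% and 17.2% in germ cells and 6.74% and 6.06% in feeder cells. Pcgf5 and Pcgf6 were not analysed here, so these are shares of the measured Pcgf genes and not of the family.

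The Cbx genes, which encode the reader subunits, differed most. In germ cells the UMIs were spread over all 5, with Cbx8 at 27.0% (24.4 to 29.6) and 27.8% (25.5 to 30.3), Cbx7 at 25.0% (22.5 to 27.6) and 23.0% (20.8 to 25.4) and Cbx2 at 19.5% (17.2 to 21.9) and 20.8% (18.7 to 23.1). Feeder cells used 1 of them, Cbx6, with 80.0% (76.1 to 83.5) and 83.2% (79.7 to 86.3), against 13.3% (11.3 to 15.4) and 15.9% (14.0 to 18.0) in germ cells. Exons of Cbx6 overlap those of Npcd on the same strand, and Npcd had 0 UMIs in every class, so Cbx6 counts are uncertain to the extent that reads of Npcd were assigned to it. Among the Phc genes, which encode the polymerising subunits, Phc1 had 67.0% (64.1 to 69.8) and 64.9% (62.1 to 67.6) in germ cells and 23.6% (18.6 to 29.2) and 18.1% (13.7 to 23.2) in feeder cells. Phc2 led in feeder cells with 44.9% (38.8 to 51.1) and 45.4% (39.4 to 51.5), and Phc3 had 31.6% and 36.5% there against 11.7% and 11.6% in germ cells.

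**Figure D2:**
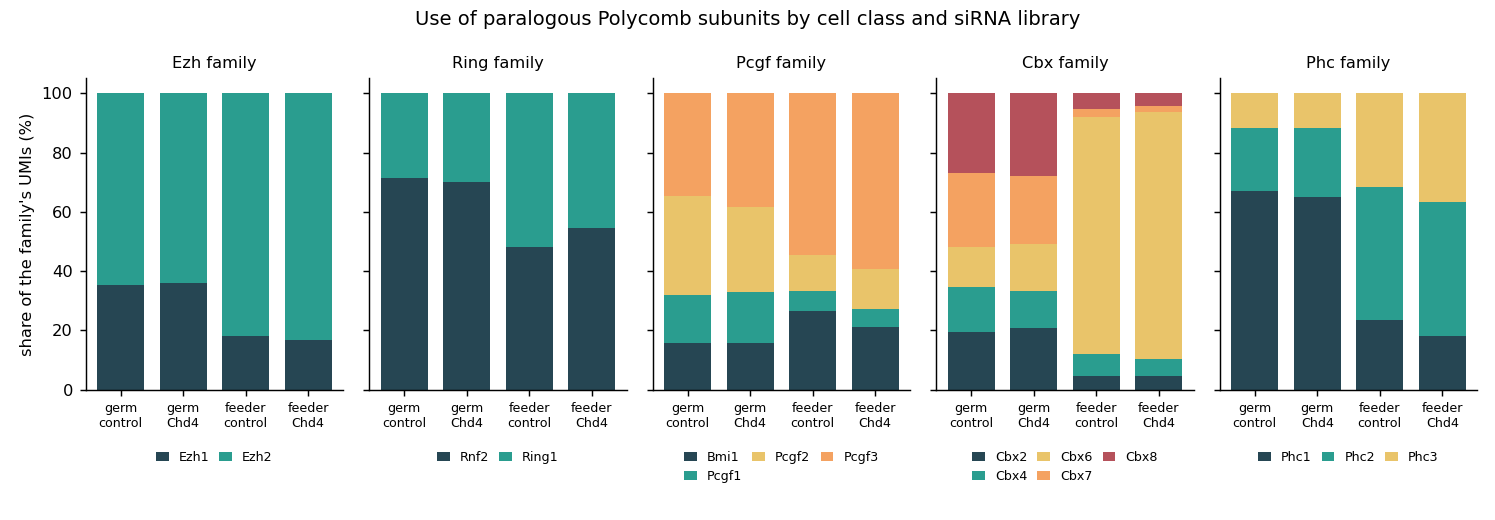
Share of the UMIs of each of 5 Polycomb families (percent, y axis) held by each measured paralog, in germ and feeder cells of the control and Chd4 siRNA libraries (x axis). The bars of the same class resemble each other between libraries, and the largest shift between classes is that of Cbx6, from 13.3% and 15.9% in germ cells to 80.0% and 83.2% in feeder cells.

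Beyond the members, 62 other genes of the Polycomb system were measured, in 6 lists: partners of PRC2, further subunits of PRC1, partners of variant PRC1, the PR-DUB deubiquitinase, DNA-binding and MBT-domain proteins, and enzymes that oppose Polycomb marks. Of the 57 with at least 100 UMIs, 25 were past 2-fold in favour of germ cells in both libraries and 6 in favour of feeder cells, beside the background of 31.6% and 18.2% over all genes. Of the 8 tested PRC2 partners 4 were higher in germ cells and 0 in feeder cells. The 4 were Rbbp4, which encodes a histone-binding subunit, Mtf2, which encodes a DNA-binding subunit, and the genes of EPOP and EZHIP, listed as E130012A19Rik and AU022751. The EZH inhibitory protein EZHIP is known from gonads, and its gene had 256 and 266 UMIs in germ cells and 0 and 4 in feeder cells.

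The same background, 31.6% of all genes in favour of germ cells and 18.2% in favour of feeder cells, applies to the further lists. Of the 14 PRC1 subunits, 4 were higher in germ cells (Cbx2, Cbx7, Cbx8, Phc1) and 4 in feeder cells (Pcgf3, Cbx6, Phc3, Yaf2). Of the 14 variant PRC1 partners, 6 were higher in germ cells and 0 in feeder cells. The widest gap was that of Auts2, which encodes a partner of PCGF3 and PCGF5 complexes, with log2 ratios of 6.74 (5.52 to 8.37) and 7.24 (5.69 to 9.52). E2f6, the DNA-binding repressor of the PCGF6 complex, had log2 ratios of 2.30 (1.82 to 2.83) and 2.42 (1.97 to 2.90). Sfmbt2, which encodes an MBT-domain partner of YY1, had 3.29 (2.77 to 3.85) and 3.91 (3.29 to 4.61). These genes were picked for their class difference, and their ratios are a description.

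**Figure D3:**
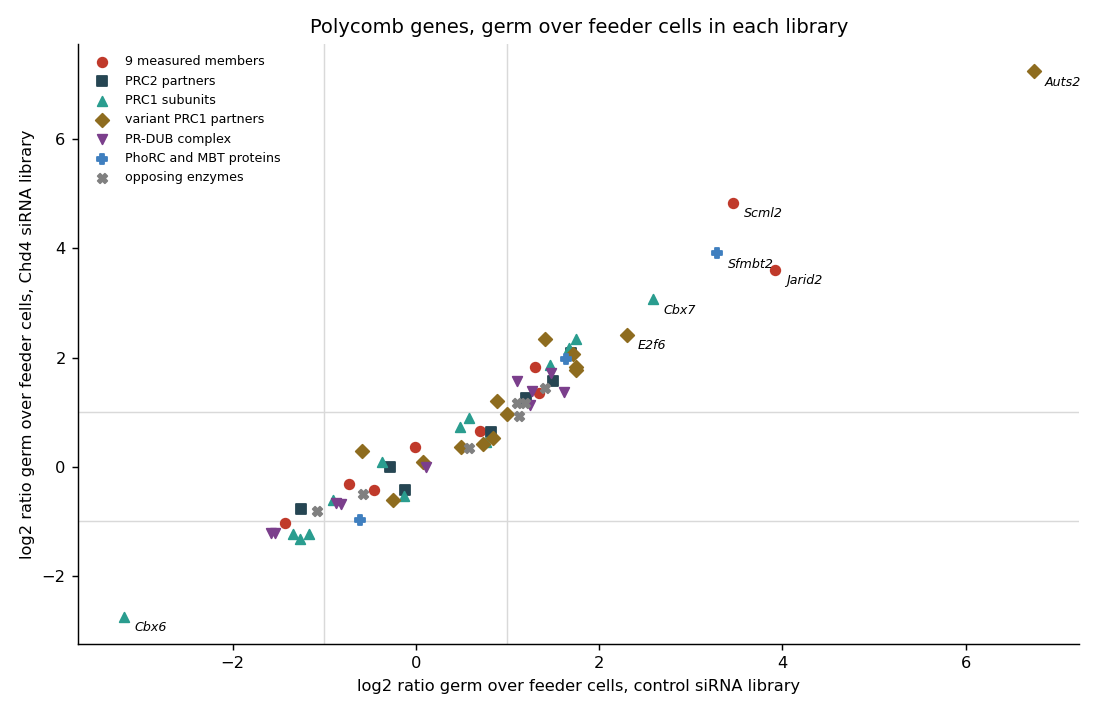
Log2 ratio of CPM in germ over feeder cells in the control library (x axis) and in the Chd4 siRNA library (y axis) for Polycomb genes with at least 100 UMIs, by list, with grey lines at 2-fold; 2 genes with 0 UMIs in a feeder group are not drawn. The points lie along the diagonal, from Cbx6 at −3.19 and −2.74 to Auts2 at 6.74 and 7.24. The axes come from separate libraries.

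Within germ cells the members with the strongest tie to the cell cycle phase were Ezh2 and Suz12. Each germ cell was thinned to 9000 UMIs and called G1, S or G2M from scores over 41 S phase and 52 G2/M genes, none of them a member. Shallower cells were left out, 62 in the control and 63 in the Chd4 siRNA library. The control library gave 258 G1, 249 S and 159 G2M cells and the Chd4 siRNA library 272, 272 and 153. A phase is a range of a score: 212 of the 1363 cells (15.6%) lay within 0.02 of a boundary. Median UMIs per cell were 14871.5 in G1, 15340 in S and 19331 in G2M in the control library, and 14810, 16451.5 and 18733 in the Chd4 siRNA library, so the G2M cells were deeper and levels are given as CPM.

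Ezh2 was at 21.0 CPM (16.8 to 25.9) in G1, 54.3 CPM (47.3 to 62.0) in S and 61.3 CPM (53.0 to 70.7) in G2M in the control library. In the Chd4 siRNA library it was at 29.2 CPM (24.3 to 34.8), 62.6 CPM (55.6 to 70.3) and 73.7 CPM (64.3 to 84.0). The G1 interval lies below the others in both libraries. The log2 ratios of S over G1 were 1.37 (1.0 to 1.75) and 1.10 (0.79 to 1.42), and those of G2M over G1 were 1.55 (1.17 to 1.93) and 1.33 (1.01 to 1.66). Ezh2 was the only member at least 2-fold higher than in G1 in both libraries, in S as in G2M, and so were 1.27% of 9102 genes in S and 1.96% of 8771 in G2M.

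Suz12, the scaffold that EZH2 needs, showed a smaller difference in the same direction. It was at 25.7 CPM (21.0 to 31.1) in G1, 46.3 CPM (39.9 to 53.5) in S and 43.4 CPM (36.4 to 51.3) in G2M in the control library, and at 28.7 CPM (23.9 to 34.3), 41.9 CPM (36.2 to 48.3) and 43.8 CPM (36.6 to 51.9) in the Chd4 siRNA library. The log2 ratios of S over G1 were 0.85 (0.50 to 1.21) and 0.54 (0.21 to 0.88). Scml2 was higher by less, with log2 ratios of S over G1 of 0.37 (0.16 to 0.58) and 0.35 (0.15 to 0.55) and of G2M over G1 of 0.45 (0.23 to 0.67) and 0.46 (0.25 to 0.68). The median over all genes was between 0.01 and 0.06 in these 4 contrasts.

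The other members showed no phase difference that both libraries shared beyond counting error. Eed was between 96.5 and 111.0 CPM in the phases of the control library, and Jarid2 between 96.3 and 106.3 CPM. Ezh1, the paralog of Ezh2, was at 24.7, 24.5 and 23.1 CPM in G1, S and G2M of the control library. In the Chd4 siRNA library it was at 35.8 CPM (30.3 to 42.0), 26.0 CPM (21.5 to 31.1) and 28.2 CPM (22.5 to 34.9), with a log2 ratio of S over G1 of −0.46 (−0.82 to −0.11). For Ring1 the log2 ratios of G2M over G1 were −0.53 (−1.11 to 0.03) and −0.52 (−1.11 to 0.04), and both intervals hold 0. Bmi1 had intervals that held 0 in all 4 contrasts. The intervals of Rnf2 held 0 in 3 of them, and its log2 ratio of G2M over G1 was 0.27 (−0.07 to 0.61) in the control and 0.34 (0.0046 to 0.68) in the Chd4 siRNA library.

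The share of Ezh2 among Ezh1 and Ezh2 UMIs differed by phase within germ cells. In G1 it was 45.9% (38.6 to 53.4) in the control and 44.9% (39.0 to 51.0) in the Chd4 siRNA library. In S it was 68.9% (63.5 to 73.9) and 70.7% (66.0 to 75.1), and in G2M 72.6% (66.8 to 77.9) and 72.3% (66.9 to 77.2). Between G1 and the other phases the intervals do not overlap, and the 2 libraries gave nearly the same shares. Rnf2 had 65.7% (59.1 to 71.8) and 66.2% (59.9 to 72.2) of the Rnf2 and Ring1 UMIs in G1 and 76.9% (70.1 to 82.8) and 78.1% (71.4 to 83.9) in G2M, and these intervals overlap in each library.

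**Figure D4:**
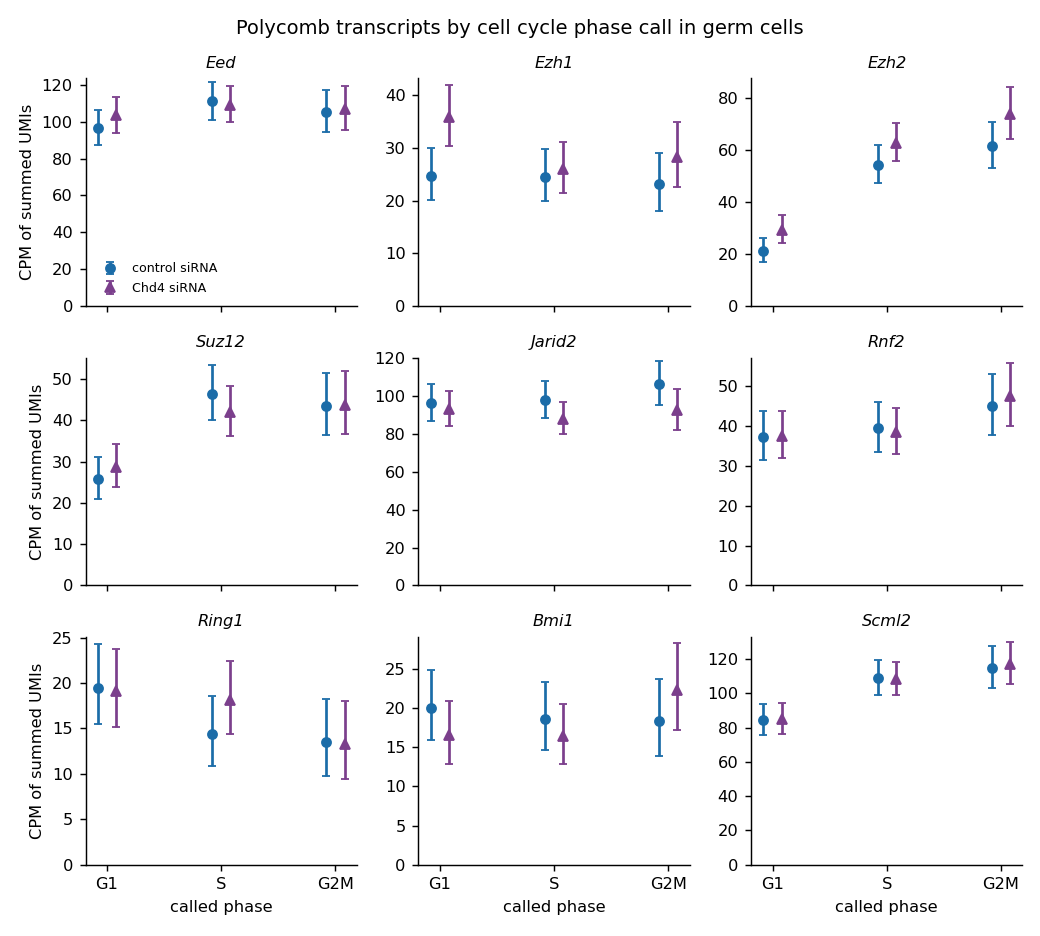
CPM of summed UMIs (y axis, from 0, with its own scale in each panel) of the 9 measured members in germ cells called G1, S or G2M (x axis), for control siRNA (circles) and Chd4 siRNA (triangles); bars are exact Poisson 95% intervals. Ezh2 goes from 21.0 and 29.2 CPM in G1 to 61.3 and 73.7 CPM in G2M, whereas Eed and Jarid2 stay near 100 CPM.

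The spread between germ cells thinned to 9000 UMIs was highest for Ezh2 among the members, though not at every depth. Extra-Poisson variation, the variance of UMIs per thinned cell beyond the mean, divided by the squared mean, was 1.36 for Ezh2 in the control and 0.575 in the Chd4 siRNA library, with Ring1 next in the latter at 0.566. The median was 0.155 over 7494 genes and 0.159 over 7547 genes with a mean of at least 0.1 UMI, and the upper quartiles were 0.365 and 0.363. With cells thinned to 5000 UMIs, Ezh2 had 1.27 in the control but 0.310 in the Chd4 siRNA library, where Rnf2 (0.763), Suz12 (0.702) and Bmi1 (0.485) were above it. In the control library at that depth Ring1 was above Ezh2, at 1.66, but its mean of 0.0728 UMI was under the limit of 0.1. In the control library 76.3% of thinned germ cells had 0 Ezh2 UMIs, 16.4% had 1, 4.65% had 2 and 2.70% had 3 or more. In the Chd4 siRNA library these shares were 65.1%, 25.1%, 6.89% and 2.87%. Cells with at least 1 Ezh2 UMI were thus 23.7% (20.5 to 27.1) and 34.9% (31.3 to 38.5) of thinned germ cells, and 39.1% and 46.2% before thinning.

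The germ cell genes at about 100 CPM had lower values at 9000 UMIs. Eed had an extra-Poisson variation of 0.0550 and 0.126, Scml2 of 0.108 and 0.165 and Jarid2 of 0.126 and 0.152, all within the quartiles of all genes at that depth. At 5000 UMIs, Scml2 in the control library had 0.412, above the upper quartile of 0.358, and Eed in the Chd4 siRNA library had −0.0146, below the lower quartile of 0.0303. At least 1 UMI was found in 60.4% (56.5 to 64.1) and 61.3% (57.5 to 64.9) of thinned germ cells for Eed, in 58.1% (54.3 to 61.9) and 58.1% (54.3 to 61.8) for Scml2 and in 57.4% (53.5 to 61.1) and 55.7% (51.9 to 59.4) for Jarid2. In thinned feeder cells, 75 and 84 in number, Scml2 was found in 5.33% and 5.95% and Jarid2 in 2.67% and 3.57%. For the low genes the estimate was unsteady: Ezh1 had values of −0.000264 and −0.184, Suz12 of 0.376 and −0.0359, and Ring1 of 0.312 and 0.566. In the 75 and 84 feeder cells Ezh2 had 1.95 and 1.20, beside upper quartiles of 0.610 and 0.661 over all genes. Other members with a mean of at least 0.1 UMI also lay above these quartiles. They were Ezh1 (1.49), Suz12 (1.05) and Eed (0.758) in the control library and Ring1 (1.04) in the Chd4 siRNA library. Before thinning, 1 feeder cell held up to 15 and 16 UMIs of Ezh2, and up to 15 and 15 of Suz12.

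In germ cells the Chd4 siRNA library differed little from the control library in Polycomb transcripts. A gene was counted as higher when its level was at least 25% above control (a log2 ratio of 0.32) and as lower when it was at least 20% below, which is the same fold. Of the 9 members, 0 were higher and 0 were lower by that count. Over the 9842 genes with at least 100 UMIs, 6.7% were higher and 5.22% were lower. The median log2 ratio over the members was 0.02, beside 0.05 over all genes, and 4 of the 9 lay above that median. The highest ratios were those of the PRC2 enzymes: Ezh1 had 279 and 363 UMIs, a ratio of 1.23 (1.05 to 1.45), and Ezh2 had 509 and 646, a ratio of 1.20 (1.07 to 1.35). Since both were higher, the share of Ezh2 was 64.6% in one library and 64.0% in the other. Jarid2 was lower, with 1163 and 1116 UMIs and a log2 ratio of −0.14 (−0.26 to −0.02).

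The intervals of the other 6 members held 0, so 2 of the 9 lay above 0 and 1 below. Among the 9842 genes, 1659 had an interval above 0 and 768 had one below 0. Eed had a log2 ratio of 0.05 (−0.06 to 0.16) and Scml2 of 0.02 (−0.09 to 0.14). For these genes counting error thus leaves room from about −0.09 to about 0.16. Suz12 was at 0.00 (−0.19 to 0.20), Rnf2 at −0.00 (−0.19 to 0.18), Ring1 at 0.09 (−0.20 to 0.38) and Bmi1 at −0.07 (−0.35 to 0.21). Spread between replicates comes on top of these intervals and could not be measured.

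Within G1 the ratios of Ezh1 and Ezh2 were larger, 0.54 (0.16 to 0.92) and 0.48 (0.07 to 0.89) on the log2 scale, and both were more than 25% higher there. The median over 7205 genes in G1 was 0.06. The share of all genes past that fold within G1 was not computed, so the 2 genes have no background there. In S they were 0.08 (−0.31 to 0.48) and 0.21 (−0.05 to 0.47), and in G2M 0.29 (−0.18 to 0.76) and 0.26 (−0.02 to 0.55). The intervals of the phases overlap for both genes. Jarid2 was at −0.05 (−0.25 to 0.16), −0.15 (−0.36 to 0.05) and −0.20 (−0.43 to 0.03) in G1, S and G2M.

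**Figure D5:**
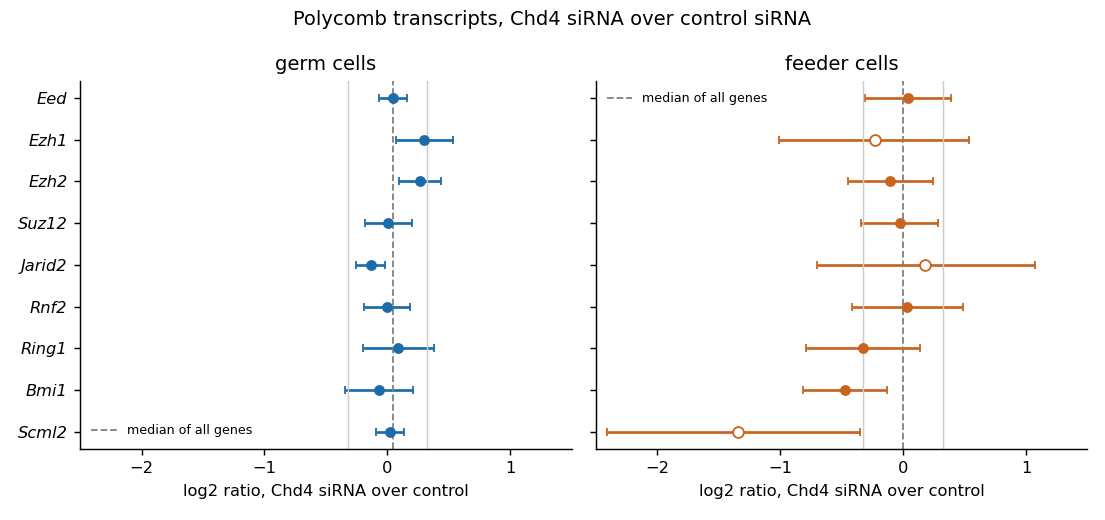
Log2 ratio of CPM in the Chd4 siRNA over the control library (x axis) for each measured member in germ cells (left) and feeder cells (right), with exact conditional binomial 95% intervals; open circles have fewer than 100 UMIs, grey lines mark 25% higher and 20% lower, and dashed lines the median of all genes. In germ cells all 9 points lie between −0.14 and 0.30, and in feeder cells Bmi1 stands at −0.47.

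In feeder cells 6 members had at least 100 UMIs, of which 0 were at least 25% higher and 2 were at least 20% lower, Bmi1 and Ring1. Over 6494 genes the shares were 11.8% higher and 14.8% lower. Bmi1 had 161 and 132 UMIs and a log2 ratio of −0.47 (−0.81 to −0.13), and Ring1 had 85 and 77 and a log2 ratio of −0.33 (−0.79 to 0.14), which holds 0. With TMM or DESeq2 scaling 1 of them, Bmi1, remained at least 20% lower. Ezh2, Eed, Suz12 and Rnf2 had log2 ratios between −0.10 and 0.04. Scml2 had 29 and 13 UMIs there, with a log2 ratio of −1.34 (−2.41 to −0.35), while the sum of the germ cell markers in feeder cells was 97.3 and 76.8 CPM. Cell cycle genes also differed between the libraries in feeder cells: the S phase list summed to 1181 and 902 CPM and the G2/M list to 2806 and 2196 CPM, beside 3068 and 3169 and 4723 and 4608 in germ cells. Their part in the feeder cell ratios was not tested.

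Of the 57 other Polycomb genes tested in germ cells, 3 were at least 25% higher in the Chd4 siRNA library (Sfmbt1, Bcor, Cbx6) and 2 at least 20% lower (Auts2, Yy1), against a background of 6.7% and 5.22% of all genes. Their median log2 ratio was 0.06. Auts2, the PRC1 partner with the strongest germ cell bias, had 1960 and 1544 UMIs, a log2 ratio of −0.42 (−0.52 to −0.33). Sfmbt1, which encodes an MBT-domain protein, had 602 and 854 UMIs and a log2 ratio of 0.43 (0.27 to 0.58). These are the Polycomb genes whose intervals lay farthest from 0.

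Yy1, which encodes the DNA-binding partner of the MBT-domain proteins, had 336 and 281 UMIs and a log2 ratio of −0.34 (−0.57 to −0.10), and Sfmbt2 was at −0.12 (−0.25 to −0.00). Cbx6 was at 0.44 (0.13 to 0.75) and Bcor, a corepressor of the PCGF1 complex, at 0.41 (0.04 to 0.78) from 107 and 150 UMIs. Among the further PRC1 subunits Cbx2 was at 0.27 (0.01 to 0.53), Cbx8 at 0.22 (0.00 to 0.44) and Pcgf2 at −0.28 (−0.47 to −0.08). Among PRC2 partners Lcorl was at 0.30 (0.05 to 0.55), Phf1 at 0.26 (0.02 to 0.49) and Rbbp7 at 0.13 (0.01 to 0.24). Max, the dimer partner of MGA, was at 0.20 (0.07 to 0.33), Skp1a at −0.08 (−0.14 to −0.02), and Ogt, which encodes the sugar transferase that acts with PR-DUB, at 0.23 (0.06 to 0.41). Of the 8 opposing enzymes 0 passed either limit, and all 8 intervals held 0. Over the 57 genes of the 6 lists, 11 intervals lay above 0 and 6 below. The background was 1659 above and 768 below among 9842 genes.

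Of the genes known as textbook targets of Polycomb, developmental regulators and cell cycle inhibitors, 25 were measured. In germ cells 7 of them had no UMI in either library, among them Hand1, Hand2, Olig2 and Sox17, and 10 had at least 20. Among all 26893 named genes, 8482 had no UMI in germ cells and 12901 had at least 20. A count of 0 sets a limit of 3 UMIs among the 11605456 of control germ cells and does not show absence. Of the 8 targets with at least 100 UMIs, 0 passed either limit in germ cells. Between the classes, 9 targets had at least 100 UMIs, and 7 were past 2-fold in favour of germ cells and 2 in favour of feeder cells in both libraries, beside 31.6% and 18.2% of all genes tested. The 2 higher in feeder cells were Cdkn2b, which encodes a cell cycle inhibitor, and Msx1, which encodes a homeobox factor. The log2 ratios of germ over feeder cells were −2.22 (−2.52 to −1.93) and −2.41 (−2.66 to −2.15) for Cdkn2b. For Msx1 they were −4.00 (−5.09 to −3.03) and −4.09 (−5.12 to −3.18). The limit of 100 UMIs pools both classes, and germ cells held more UMIs. The counts of 7 and 2 therefore lean to targets high in germ cells and are a description. Below the limit were Pax3, with 1 and 2 UMIs in germ and 35 and 35 in feeder cells, and Gata4, with 7 and 7 against 15 and 10. Lhx2, also below it, had 42 and 37 UMIs in germ and 0 and 0 in feeder cells. Cdkn2a, a cell cycle inhibitor locus and a classic Polycomb target, had 1822 and 2217 UMIs, a log2 ratio of 0.20 (0.11 to 0.30), and was higher in germ than feeder cells with log2 ratios of 2.41 (2.11 to 2.72) and 2.65 (2.37 to 2.95). T, Eomes and Foxa2, early lineage regulators, had 204 and 229, 80 and 78, and 74 and 83 UMIs in germ cells, and at most 6 UMIs in the feeder cells of either library.

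No member shares exons with another gene on its own strand in the annotation. On the opposite strand, exons of Rnf2 overlap Trmt1l, which had 392 and 394 UMIs in germ cells, and exons of Suz12 overlap Gm26563, with 17 and 9. Exons of Ezh2 overlap Gm26625, with 3 and 1, and those of Eed overlap E230029C05Rik. Whether counting used the strand was not given in the sources used here, so reads of these pairs may not have been told apart.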

How the data were processed

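Per the file headers, the deposited matrices give UMI counts, 1 whole number for each gene in each cell. The submitters' processing notes name Cell Ranger 2.1.0, Seurat and mm10 without saying what each did. Cell calling was not given in the sources used here. In all, 1105 rows without a name in the gene lists held here, with 12.1% and 12.6% of UMIs, stayed out of totals, and the last cell of each matrix, which is incomplete, was left out. This left 816 and 860 cells with 14826257 and 15920307 UMIs in named genes, and cells with at least 1000 UMIs were kept. Of the barcodes held, 1 occurs in both libraries. Scrublet called 8 and 6 cells doublets; they stayed in, except in 1 alternative.

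UMIs were summed per class and library (germ cells 11605456 and 12251236, feeder cells 3174545 and 3607230) and scaled to CPM by the class total. Sums have exact Poisson, shares Clopper-Pearson and ratios exact conditional binomial 95% intervals, which cover counting error only. Genes needed at least 100 UMIs over the groups compared. Between classes this limit pools germ and feeder cells, and germ cells held more UMIs, so genes low in germ cells pass it less often. Phases were called with scanpy 1.11.5. Gene positions came from GENCODE M21, and all 9 measured members matched a RefSeq promoter (GRCm38.p6). The intervals were tested only on counts simulated with counting error, the model they assume. That test could not show how they do on real counts. The thinning was not tested on simulated data. TMM (edgeR 4.0.16) and DESeq2 1.42.0 factors served as alternative scalings only, in R 4.3.3.

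The members and lists were chosen with earlier results of these data known. The text names all members, their Pcgf, Cbx and Phc relatives, and of each list up to 4 genes whose siRNA interval in germ cells lies farthest from 0. A result on 1 gene that this rule names is not reported here. Rbbp4, Mtf2, E130012A19Rik, AU022751, E2f6, Yaf2, Hand1, Hand2, Olig2, Sox17, Cdkn2b, Msx1, Pax3, Gata4, Lhx2, T, Eomes, Foxa2, S100a6, Lgals1 and Sox9 were added after their values were seen. Marker lists of other testis cells gave low sums in germ cells of the control and Chd4 siRNA libraries: Sertoli 18.6 and 18.9 CPM, Leydig 2.50 and 1.80, macrophage 14.0 and 15.3, endothelial 12.4 and 12.2, peritubular myoid 1.03 and 1.63 and spermatid 7.58 and 7.75. In feeder cells they gave 254 and 265, 0.315 and 0.554, 1.26 and 5.54, 3.15 and 6.65, 3.78 and 5.27, and 0.315 and 1.11. Sox9 held most of the Sertoli sum in feeder cells, with 221 and 207 CPM.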

Additional observations from a re-analysis of the deposited data

Results flagged for a closer look

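Cells that fell in neither class entered no comparison and still held Polycomb transcripts: 9 cells of the control library had 6 UMIs of the measured members among 46256 UMIs, and 9 cells of the Chd4 siRNA library had 13 among 61496. Both counts are above the limit of 3 that a count of 0 allows.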

How the results depend on the processing

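No paired analysis was possible because each group is 1 library in which the replicates were combined, so none could be left out either. Of 190 alternative values of counts, medians and family shares, 178 kept their place and 12 moved. In germ cells, the number of members at least 25% higher was 0 and became 2 in G1 cells (Ezh1, Ezh2). G1 cells held fewer UMIs, and the share of all genes past that fold there was not computed. The number of other Polycomb genes at least 25% higher was 3 and became 5 with at least 20 UMIs per gene and 0 at 1.5-fold, and the number at least 20% lower was 2 and became 1 with stricter classes and 0 at 1.5-fold. In feeder cells the 2 members at least 20% lower became 1 with classes from Leiden clusters, with TMM factors, with DESeq2 size factors and, in an alternative chosen after seeing the data, in cells with at most 20% of UMIs in unnamed rows, and 0 at 1.5-fold. At 3-fold, 2 members in place of 4 were higher in germ cells and 0 in place of 1 in feeder cells. The stricter folds count fewer genes by construction, and the cause of the other moves was not tested. Over the 9 alternatives, Ezh1 kept a positive germ cell ratio (log2 0.25 to 0.54), as did Ezh2 (0.22 to 0.48), and Jarid2 a negative one (−0.19 to −0.05). In feeder cells Bmi1 was between −0.50 and −0.34 and Ring1 between −0.45 and −0.27. Suz12, Rnf2, Ring1 and Scml2 in germ cells changed sign under at least 1 alternative, from values near 0. Shares of cells with a UMI moved with the thinning depth, and 8 of 18 values of extra-Poisson variation moved at 5000 UMIs.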
